A study of Homo sapiens with 12 samples.

Results

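The matrix metalloproteases (MMPs), the ADAM and ADAMTS proteases and the tissue inhibitors of metalloproteases (TIMPs) were described across Huh-7 liver cancer xenografts treated with the kinase inhibitor CS2164, with ionising radiation (IR), or with both. Members were all genes whose symbol starts with MMP, TIMP, ADAMTS or ADAM followed by a digit, which took 67 of the 19988 genes in the table: 23 MMPs, 20 ADAMs, 19 ADAMTS genes, 4 TIMPs and MMP24OS. MMP24OS matched by its letters only: it is a neighbour of MMP24 on the opposite strand and no metalloprotease, and it is left out of the subfamily counts. Of the 67 members, 36 had enough reads to be tested, 10 had no read in any of the 12 libraries and 21 had too few.

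Huh-7 is an established human hepatocellular carcinoma line, grown here as subcutaneous tumours in nude mice of the BALB/c strain, aged 6 weeks, and treatment started at a mean tumour volume of 150 to 200 mm3. The 4 groups held 3 libraries each: CS2164, given daily by mouth at 10 mg/kg, IR, given as 2 Gy a day in 10 fractions, CS2164_IR, which received both, and control, which received the co-solvent. CS2164, also called chiauranib, inhibits the mitotic Aurora kinase B and several receptor kinases, among them those for VEGF and CSF1. All mice were anaesthetised with pentobarbital before irradiation. Every sample carries Huh-7 as its cell line, but the titles read Huh-8 for CS2164, Huh-9 for IR and Huh-10 for CS2164_IR, so that these names and the treatments cannot be told apart.

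These proteases are built around a zinc-dependent catalytic domain, which some ADAMs have lost. MMPs cut collagens and other matrix proteins, and the membrane-type MMPs do so at the cell surface, where MMP14 also activates proMMP2. ADAMs release the extracellular part of membrane proteins, the ADAMTS proteases are secreted and cut proteoglycans, procollagens or von Willebrand factor, and the TIMPs block MMPs and some ADAM and ADAMTS enzymes by binding the active site.

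The sequence before the start is shown for 4 genes whose values carry the results below. TIMP1 and ADAMTS6 were called higher with radiation averaged over CS2164, and ADAMTS12 and MMP14 were called higher with CS2164 against control. MMP14 stood at a similar level in IR and CS2164_IR. Each is the stretch of 250 bases before the start in RefSeq (build GRCh38.p14), written 5′ to 3′ on the gene's strand. Capitals mark matches on either strand to the GC box GGGCGG, the AP-1 motif TGANTCA or TGAGTAA, the AP-1-like sequence known from the TIMP1 promoter, which was added after its promoter had been read. The windows are chrX:47582186-47582435 (plus strand) for TIMP1, chr5:65481921-65482170 (minus) for ADAMTS6, chr5:33891991-33892240 (minus) for ADAMTS12 and chr14:22836335-22836584 (plus) for MMP14.
TIMP1: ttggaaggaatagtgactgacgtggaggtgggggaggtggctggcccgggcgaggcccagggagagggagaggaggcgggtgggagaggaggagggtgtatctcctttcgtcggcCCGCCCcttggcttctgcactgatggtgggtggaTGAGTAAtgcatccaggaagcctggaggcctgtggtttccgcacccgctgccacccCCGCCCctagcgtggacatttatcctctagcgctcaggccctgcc
ADAMTS6: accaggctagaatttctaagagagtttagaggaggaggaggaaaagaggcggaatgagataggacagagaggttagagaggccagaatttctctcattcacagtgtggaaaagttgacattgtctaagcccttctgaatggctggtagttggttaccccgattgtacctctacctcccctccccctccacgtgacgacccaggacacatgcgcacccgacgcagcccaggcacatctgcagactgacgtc
ADAMTS12: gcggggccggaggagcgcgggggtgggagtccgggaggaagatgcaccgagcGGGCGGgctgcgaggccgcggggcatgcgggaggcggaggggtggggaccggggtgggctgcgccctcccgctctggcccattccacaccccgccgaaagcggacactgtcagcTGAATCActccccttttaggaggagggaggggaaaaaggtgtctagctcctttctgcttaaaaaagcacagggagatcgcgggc
MMP14: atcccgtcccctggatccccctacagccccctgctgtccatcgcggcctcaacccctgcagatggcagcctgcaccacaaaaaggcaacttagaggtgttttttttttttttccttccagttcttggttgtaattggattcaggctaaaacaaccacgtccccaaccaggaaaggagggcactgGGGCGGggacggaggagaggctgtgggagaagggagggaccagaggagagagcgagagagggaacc

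In these windows TIMP1 held TGAGTAA starting 101 bases before the start and GC boxes at 135 and 45 bases. ADAMTS12 held TGANTCA at 84 bases and a GC box at 198 bases, MMP14 held a GC box at 66 bases, and none of these letters was in the ADAMTS6 window. Distances are to the RefSeq start, and the windows of TIMP1, ADAMTS12 and MMP14 run into the GENCODE gene span given below. TGAGTAA and the nearer GC box of TIMP1, and all matches of ADAMTS12, lie inside that span. A RefSeq window was found for 22 of the 36 tested members, with 23 windows because ADAMTS10 has a pair. The GC box was in 20 of the 23 windows and in 42.6% of all 35116 RefSeq promoters of the same length. The 23 are of genes with enough reads here, while the 35116 were not chosen by expression, so the sets are not alike. TGANTCA was in 1 of the 23 and in 6.57% of all, and TGAGTAA in 1 of the 23 and in 2.21% of all. A match describes letters and is not evidence of binding.

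The libraries held 12886607 to 16890346 counts, of which the members took 0.0928% to 0.131%. CS2164 replicate 1 and control replicate 2 stood apart: their mean rank correlations with the other libraries of their group were 0.973 and 0.979, in a span of 0.973 to 0.993 over the 12 libraries. Liver and liver cancer markers, all 10 of them detected, took 4.61% to 6.49% of counts in CS2164, 3.87% to 4.40% in IR, 4.43% to 6.33% in CS2164_IR and 5.61% to 6.34% in control, so that every IR library lay below every other library. Fibroblast and pericyte markers, 8 of 10 detected with THY1 and POSTN at 0, summed to 0.00473% to 0.00786% of counts in CS2164, 0.00544% to 0.00858% in IR and 0.00594% to 0.00689% in CS2164_IR, all above the 0.00336% to 0.00404% in control. Most of these reads were from COL1A2, with 7186 in all, and 5 of the 10 markers had at most 10 reads in every library. Among the 5 tested markers, COL1A1, COL1A2 and LUM averaged higher in each treated group than in control. COL3A1 and PDGFRB did so in CS2164 only. For CS2164 against control 2 of the 5 passed as higher, and for IR and CS2164_IR against control 0 did. Among all genes 10.4%, 0.207% and 0.148% passed as higher in these comparisons, in that order. Endothelial markers took at most 0.00127%, with KDR and FLT1 at 0, and macrophage and neutrophil markers at most 0.0269%, with ADGRE1, ELANE and S100A8 at 0. Most reads of the macrophage and neutrophil markers were from CSF3R, with 25950 in all, and LYZ, with 8868. Of these 12 markers 8 had at most 10 reads in every library. Host cells are of mouse and the handling of mouse reads is not given in the sources used here, and in a bulk sample fewer cells of a type and less RNA per cell cannot be told apart. The part of the fibroblast and liver markers in the results below was not tested.

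Among the human genes counted, the tumours expressed membrane-type and furin-activated MMPs and almost none of the classical secreted ones. The genes counted are human, so the levels of the mouse host's own MMPs in these tumours are not known here. Levels are TMM-scaled FPKM, the deposited counts divided by gene length and by a library size scaled between libraries, averaged over all 12 libraries. MMP15, a membrane-type MMP, stood highest at 31.8, followed by MMP11, the secreted stromelysin-3, at 21.6, and MMP14, the best known membrane-type collagenase, at 15.9. The median over all 13521 genes tested was 4.82. Of 6 membrane-type MMPs 5 were tested, and MMP25 was not, with 36 reads in all.

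The 3 collagenases MMP1, MMP8 and MMP13 had 4 reads in all libraries together, all from MMP13, and both MMP1 and MMP8 were at 0. The gelatinases MMP2 and MMP9 had 1 and 3 reads. Of the stromelysins and matrilysins, MMP3 had 1 read and MMP7, MMP10 and MMP26 had none. A gene with no read in a library may still lie anywhere up to 0.178 to 0.233 CPM there, a floor of 3 counts that covers counting error only. MMP27 was also at 0, and MMP12, the macrophage elastase, had 3 reads.

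Among the ADAMs, ADAM9, a widely expressed sheddase, stood highest at 13.5 FPKM and ADAM10, which cuts Notch receptors and cadherins, next at 6.92. ADAM28 was at 4.53, ADAM15 at 4.51 and ADAM17, the TNF and EGF-ligand sheddase, at 2.43. Of 12 ADAMs with a zinc-binding site 6 were tested, and of the 8 without one 5 were, the highest being ADAM23 at 4.34, a protein known from neurons. ADAM29 and ADAM30 had no reads.

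ADAMTS13, which liver stellate cells are known to make and which cuts von Willebrand factor, led the ADAMTS genes at 9.49 FPKM. ADAMTS12, a protease of cartilage oligomeric matrix protein, followed at 7.35 and the versican-cutting ADAMTS1 at 6.74. The procollagen N-proteinases were near absent: ADAMTS2 and ADAMTS14 had no reads. ADAMTS4, an aggrecanase, had 27 reads in all and was not tested, and ADAMTS5, the other main aggrecanase, stood at 0.153.

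All 4 TIMPs were expressed, TIMP1 at 10.4 FPKM, TIMP4 at 4.47, TIMP2 at 2.53 and TIMP3 at 0.616. Besides the 10 genes without a read, the 21 untested members had 1 to 78 reads in total and at most 16 in a library. Among the tested members the level ran down to 0.0699 for ADAM32.

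**Figure D1:**
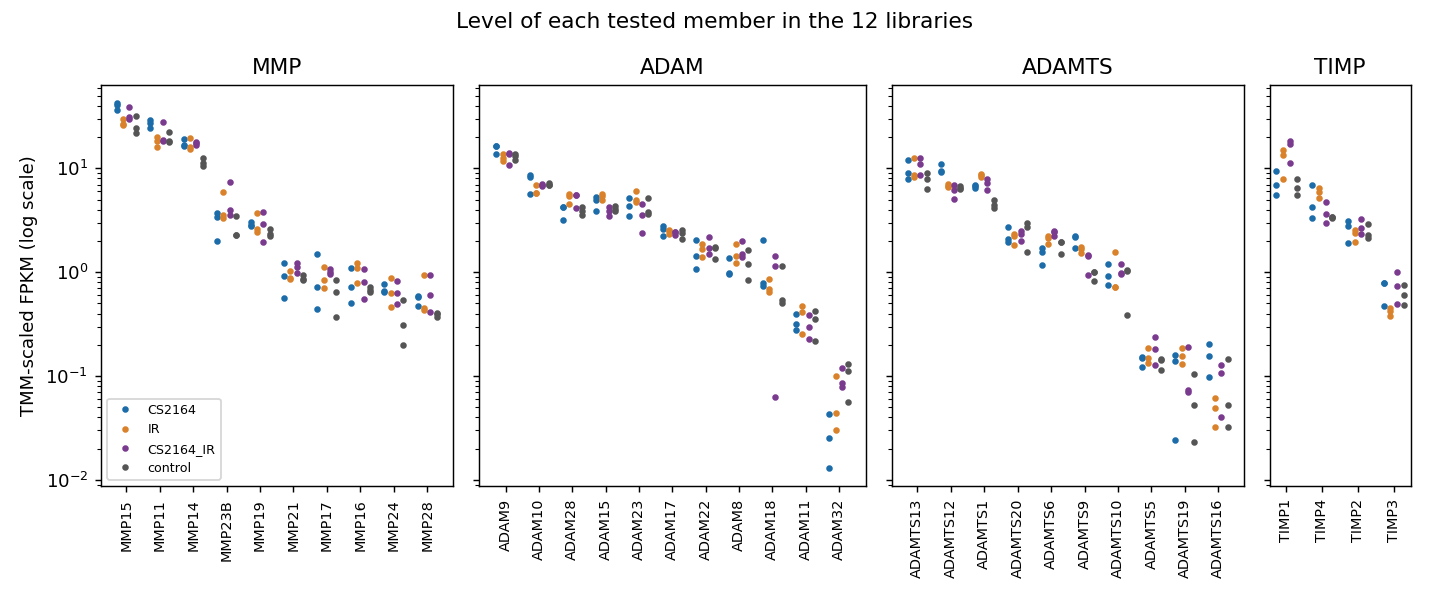
TMM-scaled FPKM (log axis) of the 35 tested MMPs, ADAMs, ADAMTS genes and TIMPs, each point 1 library, coloured by group and ordered by falling level within a subfamily. MMP15, MMP11 and MMP14 stand highest, and the lowest are ADAM32, ADAMTS16 and ADAMTS19.

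CS2164 alone changed 6 of the 36 tested members relative to control, 5 higher and 1 lower. Across all 13521 genes 19.7% passed in the same comparison, 10.4% higher and 9.32% lower, so the members' share was near the background. When only the CS2164 and control libraries were fitted, ADAMTS9 alone of the 6 passed, and the share over all genes was 2.18%. With IR alone 1 of 36 passed, and it was higher, against 0.436% of all genes, 0.207% higher and 0.229% lower, and with CS2164_IR none of 36 did, against 0.192% of all genes. Beside that count of 0, 10 members had an unadjusted p under 0.05, as did 16.4% of all genes, and DESeq2 called 3, namely ADAMTS1, MMP14 and TIMP1, where it called 2.35% of all genes. Groups whose libraries do not overlap were common. Against control this held for 11 of 36 members and 36.4% of all genes with CS2164, 10 and 26.3% with IR, and 8 and 26.4% with CS2164_IR. For CS2164_IR it held for 6 members and 32.3% of all genes against CS2164, and for 8 and 9.5% against IR.

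Within the treated groups, CS2164_IR differed from CS2164 in 4 of 36 members, 2 higher and 2 lower, against 9.69% of all genes, 3.78% higher and 5.91% lower. A fit of those groups only left ADAMTS12 and TIMP1, with 6.32% of all genes. CS2164_IR against IR gave no member and 0% of all genes, with 4 members and 2.45% of all genes at an unadjusted p under 0.05 and no member called by DESeq2. Averaged over the presence and absence of CS2164, radiation changed 5 members, 4 higher and 1 lower, against 7.62% of all genes, 3.45% higher and 4.16% lower. CS2164 averaged over radiation gave 0 members, against 0.178% of all genes, with 7 members and 22.9% of all genes at an unadjusted p under 0.05, and DESeq2 called MMP11, MMP14 and MMP15 among 7.34% of all genes. The interaction, which asks whether the effect of CS2164 differs between irradiated and unirradiated tumours, gave 0 members and 0% of all genes, with 8 members and 20.2% of all genes at an unadjusted p under 0.05 and 3 members and 4.73% of all genes called by DESeq2. The comparisons share libraries, so their calls are not independent of each other.

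The subfamilies can be set beside each other by the median log2 fold change of their tested members. For CS2164 against control it was 0.47 for the MMPs, with 10 of 10 above 0, 0.05 for the ADAMs, with 6 of 11 above 0, 0.44 for the ADAMTS genes, with 8 of 10, and 0.15 for the TIMPs, with 4 of 4. Over all genes tested the median was -0.01, with 6596 of 13521 above 0. For IR against control the medians were 0.54 for the MMPs, 0.08 for the ADAMs, 0.26 for the ADAMTS genes and 0.35 for the TIMPs, and for CS2164_IR against control 0.48, -0.01, 0.42 and 0.22, with all-gene medians of -0.01 and 0.00.

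Fold changes over all genes were correlated with base composition. The rank correlation across genes between log2 fold change and GC content was 0.44 for CS2164 against control, 0.44 for IR and 0.48 for CS2164_IR, and genes are not independent replicates. For each library's deviation from the mean it was -0.54 to -0.33 in control, -0.30 to 0.42 in IR and 0.00 to 0.26 in CS2164_IR. In CS2164 it was 0.66 for replicate 1, and -0.11 and -0.21 for its mates. Whether a correction for this trend also takes out part of a treatment effect was not tested. After correction of each library for GC content and gene length, the MMP median was 0.22 for CS2164, 0.30 for IR and 0.37 for CS2164_IR. The ADAMTS medians then were 0.30, 0.16 and 0.28 in the same order, the ADAM medians 0.11, 0.10 and 0.08, and the TIMP medians 0.19, 0.24 and 0.16. For CS2164 the corrected MMP and TIMP medians thus lay close together, and the ADAM median for CS2164_IR changed sign. Without CS2164 replicate 1 and control replicate 2 the MMP median for CS2164 was 0.38 and the ADAMTS median 0.28, and the ADAMTS median for IR was 0.15. No difference between subfamilies was tested.

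**Figure D2:**
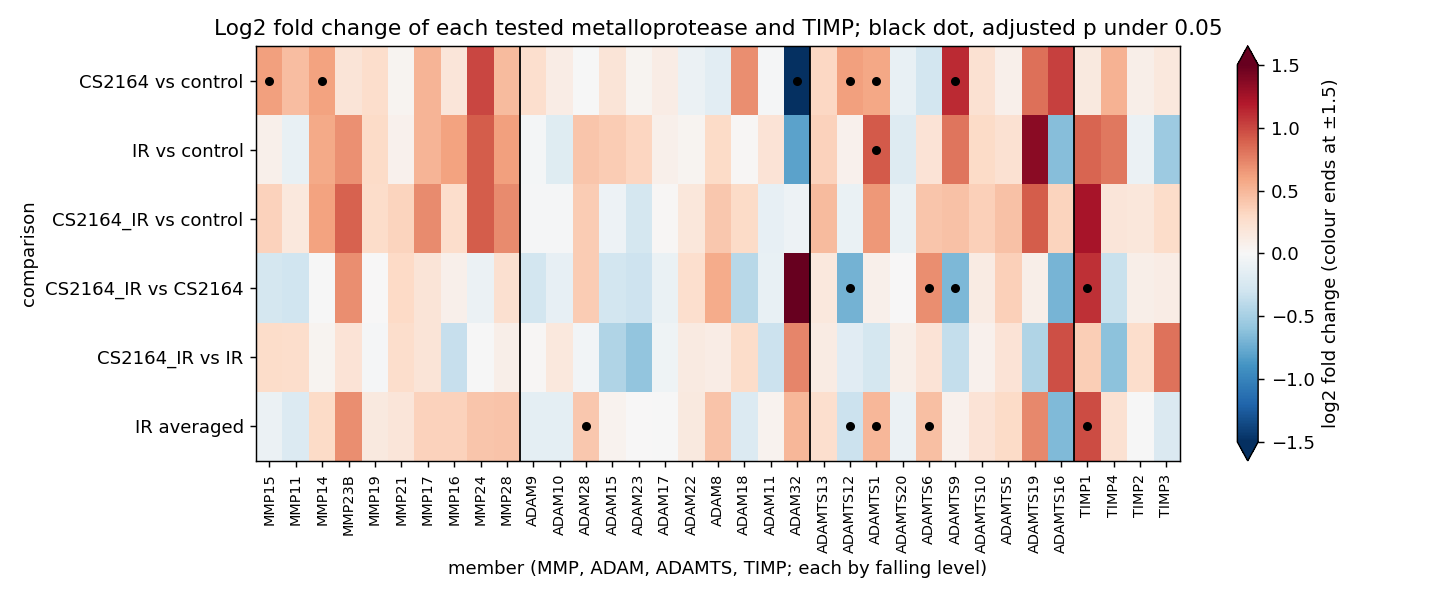
Log2 fold change (colour, ending at ±1.5) of the 35 tested MMPs, ADAMs, ADAMTS genes and TIMPs in 6 comparisons, with a black dot where the adjusted p was under 0.05. Dots stand at 2 MMPs, 3 ADAMTS genes and ADAM32 for CS2164 against control, and TIMP1 has one for CS2164_IR against CS2164 and for radiation averaged over CS2164.

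Both strongly expressed membrane-type MMPs were higher with CS2164. MMP14 (ENSG00000157227, chr14:22836557-22849027, GRCh38) had 19.1, 16.9 and 16.6 FPKM in CS2164 tumours, 16.002, 15.3 and 19.8 in IR, 17.6, 17.98 and 16.8 in CS2164_IR, and 12.5, 11.3 and 10.6 in control. Every treated library lay above every control library, and the 3 treated groups overlapped. MMP14 rose by 0.61 ± 0.14 with CS2164 (log2 fold change ± SE, n = 3 libraries a group, edgeR quasi-likelihood test, adjusted p = 0.00836). In IR it was 0.57 ± 0.14 above control (adjusted p = 0.0691) and in CS2164_IR 0.60 ± 0.14 above (adjusted p = 0.0632), neither passing. Each of these differences did pass with DESeq2, without CS2164 replicate 1, and without CS2164 replicate 1 and control replicate 2 together. Neither passed under any other alternative run, among them the correction for GC content and length and the fit of the compared groups only. In the settings where they passed, in the order named, 2.57%, 3.35% and 3.26% of all genes passed for IR, and 2.35%, 3.18% and 3.05% for CS2164_IR. After correction for GC content and length the CS2164 value was 0.35, a drop of over 1.5 times, with an adjusted p of 0.0245.

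MMP15 (ENSG00000102996, chr16:58025566-58046901), which like MMP14 sits in the cell membrane, had 40.8, 36.6 and 42.5 FPKM in CS2164, 26.2, 26.7 and 29.9 in IR, 38.7, 30.1 and 31.1 in CS2164_IR and 32.1, 21.8 and 24.5 in control. CS2164 alone kept clear of control, while IR and CS2164_IR overlapped it. MMP15 rose by 0.61 ± 0.15 with CS2164 (adjusted p = 0.0136). The call ended without control replicate 2, and after correction for GC content and length the value was 0.36 (adjusted p = 0.0785).

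The other MMPs did not pass in any comparison, although MMP11, MMP23B and MMP24 did under some alternatives. MMP11, whose exons overlap those of CHCHD10 on the opposite strand, averaged 26.9 ± 2.35 FPKM in CS2164 and 19.6 ± 2.65 in control (SD, n = 3 each), a log2 fold change of 0.46 ± 0.17 with an adjusted p of 0.0595. It passed there with DESeq2 (adjusted p = 0.0363), without control replicate 1 and without CS2164_IR replicate 1, and after correction for GC content and length it was lower with radiation averaged over CS2164 (log2 fold change -0.31, adjusted p = 0.0441). MMP24, a membrane-type MMP of the nervous system that shares exon positions with MMP24OS, had a fold change of 1.00 ± 0.37 (adjusted p = 0.0622) on 470 reads in all, and passed with DESeq2 (adjusted p = 0.0348) and without control replicate 1. MMP23B, which overlaps the well-expressed CDK11B, was 0.70 ± 0.22 higher with radiation averaged over CS2164 (adjusted p = 0.0616), and passed with DESeq2 (adjusted p = 0.0277), with the replicate number as a block (adjusted p = 0.0232) and without CS2164 replicate 1. Since the protocol does not mark the strand, reads of such pairs cannot be told apart.

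ADAMTS genes gave the most calls. ADAMTS1 (ENSG00000154734, chr21:26835747-26845409), a protease that cuts versican and aggrecan, had 6.96, 6.81 and 6.48 FPKM in CS2164, 8.20, 8.91 and 8.58 in IR, 6.26, 7.92 and 7.23 in CS2164_IR and 4.95, 4.45 and 4.20 in control. All 9 treated libraries lay above control, and IR lay above both other treated groups. ADAMTS1 rose by 0.57 ± 0.14 with CS2164 (adjusted p = 0.0105) and by 0.92 ± 0.14 with IR (adjusted p = 0.00614). The IR call ended without IR replicate 1 (adjusted p = 0.0643). In CS2164_IR it was 0.66 ± 0.14 above control (adjusted p = 0.0533). The interaction was -0.84 ± 0.19 and did not pass (adjusted p = 0.0839), although it did after correction for GC content and length (adjusted p = 0.048) and without CS2164 replicate 1 and control replicate 2 (adjusted p = 0.0274).

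ADAMTS9 (ENSG00000163638, chr3:64515654-64688000), another versican and aggrecan protease, had 2.19, 2.25 and 1.71 FPKM in CS2164, 1.53, 1.75 and 1.66 in IR, 0.939, 1.47 and 1.43 in CS2164_IR and 1.01, 0.830 and 0.995 in control. CS2164 and IR lay above control, and 1 CS2164_IR library lay among the controls. It rose by 1.12 ± 0.19 with CS2164 (adjusted p = 0.00455), the largest rise among the members that passed there. Its difference between IR and control passed in some alternatives, among them DESeq2 (adjusted p = 0.00987) and the fit of those groups only (adjusted p = 0.0363). It was 0.67 ± 0.19 lower in CS2164_IR than in CS2164 (log2 fold change -0.67, adjusted p = 0.0334), a call that ended without CS2164 replicate 2, IR replicate 2, CS2164_IR replicate 1 or CS2164_IR replicate 3. The interaction was -1.47 ± 0.27 (adjusted p = 0.0839), and DESeq2 called it, as it did those of ADAMTS1 and ADAMTS12. After that correction its adjusted p was 0.0268, and without the pair of distant libraries 0.0223. Its exons overlap the antisense gene ADAMTS9-AS1, which is not among the genes counted.

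ADAMTS12 (ENSG00000151388, chr5:33523535-33892192), whose promoter is shown above, had 11.1, 9.22 and 9.52 FPKM in CS2164, 6.78, 7.02 and 6.69 in IR, 5.11, 6.90 and 6.25 in CS2164_IR and 6.50, 6.31 and 6.75 in control. Only the CS2164 libraries stood above all others. It rose by 0.61 ± 0.14 with CS2164 (adjusted p = 0.00836) and had a log2 fold change of -0.71 ± 0.14 in CS2164_IR against CS2164 (adjusted p = 0.00667). The interaction of -0.78 ± 0.19 did not pass (adjusted p = 0.0993). Averaged over CS2164, radiation gave -0.32 ± 0.10 (adjusted p = 0.0491) with overlapping libraries, and this call ended in 11 of 19 alternatives.

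ADAMTS6 (ENSG00000049192, chr5:65148736-65481920), a secreted protease known in mice from heart development, went the other way. It had 1.18, 1.71 and 1.57 FPKM in CS2164, 1.89, 2.13 and 2.22 in IR, 2.45, 2.25 and 2.51 in CS2164_IR and 1.95, 1.504 and 1.95 in control. CS2164_IR lay above CS2164 and control, and IR overlapped control. It rose by 0.69 ± 0.18 in CS2164_IR against CS2164 (adjusted p = 0.023), a call that ended without CS2164_IR replicate 1 or 3. Averaged over CS2164 radiation raised it by 0.45 ± 0.13 (adjusted p = 0.0373), which ended in 11 of 19 alternatives. ADAMTS13 averaged 9.64 ± 2.12 FPKM in CS2164, 9.83 ± 2.42 in IR, 10.7 ± 1.97 in CS2164_IR and 7.75 ± 1.36 in control (SD, n = 3 each) and did not pass in any comparison.

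**Figure D3:**
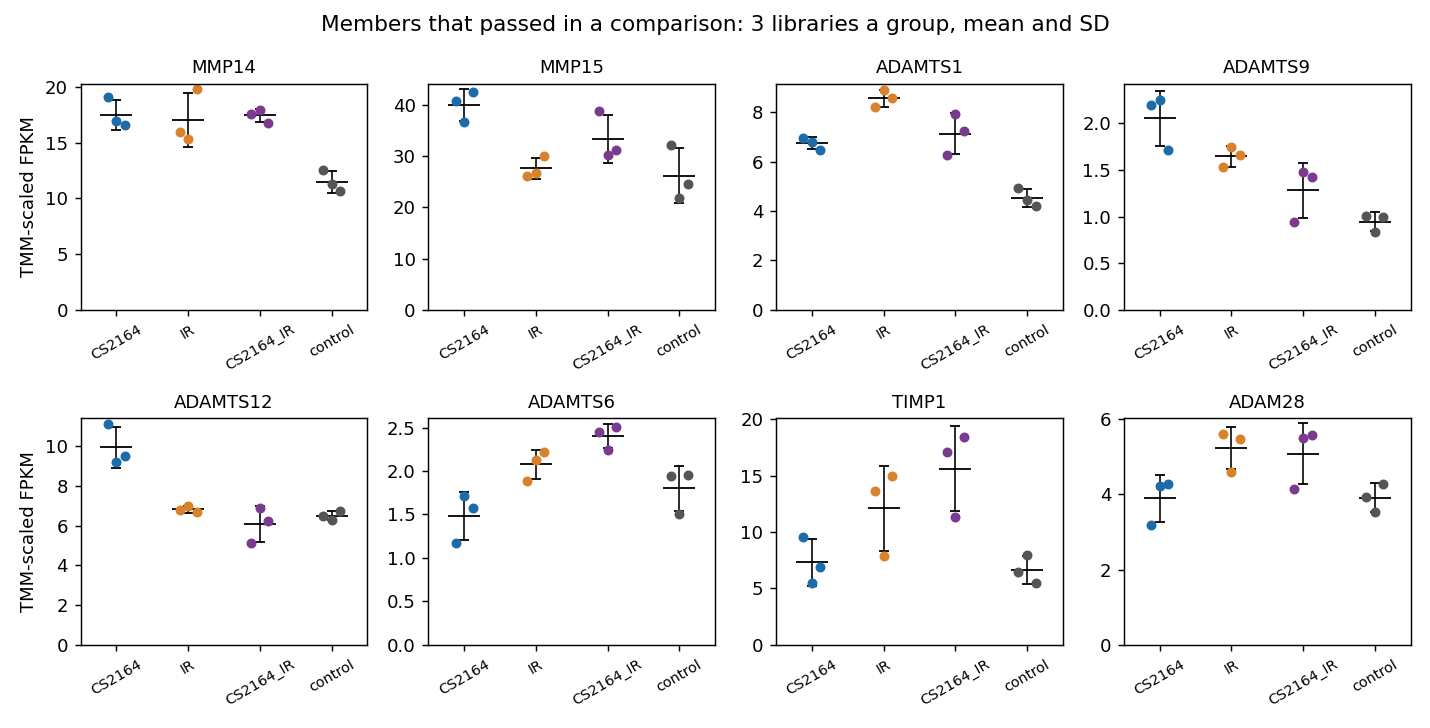
TMM-scaled FPKM of 8 members that passed in at least 1 comparison, with a point for each library and a bar for mean and SD (n = 3 libraries a group), each axis starting at 0. MMP14 and ADAMTS1 lie above control in all 9 treated libraries, ADAMTS12 stands out in CS2164 alone, and TIMP1 is highest in CS2164_IR.

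Of the TIMPs only TIMP1 passed, for radiation averaged over CS2164 and for CS2164_IR against CS2164. TIMP1 (ENSG00000102265, chrX:47582313-47586789), the inducible secreted inhibitor, had 9.54, 5.49 and 6.88 FPKM in CS2164, 13.6, 7.84 and 14.9 in IR, 17.1, 11.4 and 18.4 in CS2164_IR and 6.43, 7.95 and 5.50 in control. Every CS2164_IR library lay above all CS2164 and control libraries, while IR replicate 2, at 7.84, lay just under the highest control. Averaged over CS2164, radiation raised TIMP1 by 0.98 ± 0.18 (adjusted p = 0.00464, libraries overlapping), a call kept in all 19 alternatives run. It rose by 1.09 ± 0.26 in CS2164_IR against CS2164 (adjusted p = 0.0166), which ended without CS2164 replicate 2, CS2164_IR replicate 1 or CS2164_IR replicate 3. Against control it was 1.23 ± 0.26 higher in CS2164_IR (adjusted p = 0.0533) and 0.87 ± 0.26 in IR (adjusted p = 0.136), and the value for CS2164 alone was 0.14 ± 0.26 (adjusted p = 0.742).

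The 3 other TIMPs did not pass in any comparison. TIMP4 averaged 4.84 ± 1.89 FPKM in CS2164, 5.85 ± 0.623 in IR, 3.81 ± 0.903 in CS2164_IR and 3.38 ± 0.0462 in control (SD, n = 3 each). IR lay above control, at a fold change of 0.79 ± 0.27 with an adjusted p of 0.178, and the gene's exons overlap SYN2 on the opposite strand. TIMP3, which binds to the matrix and also inhibits ADAM17, averaged 0.683 ± 0.183 in CS2164, 0.419 ± 0.0377 in IR, 0.747 ± 0.253 in CS2164_IR and 0.615 ± 0.135 in control (SD, n = 3 each). For TIMP3 every IR library lay below every control library, at a log2 fold change of -0.55 ± 0.33 with an adjusted p of 0.427. TIMP2, known for its part in the activation of proMMP2 by MMP14, stood between 1.90 and 3.25 in all libraries.

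The summed level of the TIMPs was 12.1 to 20.1 FPKM in CS2164, 16.1 to 24.2 in IR, 17.9 to 26.7 in CS2164_IR and 11.7 to 14.9 in control. That of the MMPs was 86.2 to 98.3 in CS2164, 70.4 to 81.7 in IR, 77.9 to 98.2 in CS2164_IR and 58.6 to 76.1 in control. The ADAMTS sum was 31.3 to 37.0 in CS2164, 30.1 to 35.7 in IR, 30.8 to 32.1 in CS2164_IR and 21.8 to 27.3 in control. The sum for the TIMPs was thus above control in every IR and CS2164_IR library, and that for the MMPs in every CS2164 and CS2164_IR library. That for the ADAMTS genes was above control in every treated library. The ADAM sum ran from 34.5 to 45.4 over all 12 libraries. These sums weigh a few strong genes and were not tested.

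The principal sheddases did not pass in any comparison with all libraries. ADAM9 stood at 10.7 to 16.4 FPKM, ADAM10 at 5.73 to 8.73 and ADAM17 at 2.103 to 2.77 over the 12 libraries. Their fold changes for CS2164 against control were 0.26 ± 0.14, 0.11 ± 0.15 and 0.12 ± 0.15. For ADAM9 every CS2164 library lay above every control library (adjusted p = 0.199). Without CS2164 replicate 1 and control replicate 2, however, ADAM9 and ADAM10 were lower in CS2164_IR than in CS2164 (log2 fold changes -0.35 and -0.29, adjusted p = 0.03 and 0.0441), and ADAM10 was lower with radiation averaged over CS2164 (-0.24, adjusted p = 0.0183). In that setting 23.9% and 27% of all genes passed in these comparisons. ADAM17 shares exon positions with IAH1 on the opposite strand and ADAM10 with an antisense gene. ADAM15, the disintegrin metargidin, averaged 4.70 ± 0.735 in CS2164, 5.34 ± 0.374 in IR, 3.89 ± 0.386 in CS2164_IR and 4.10 ± 0.217 in control (SD, n = 3 each) and did not pass either, but after GC and length correction it was lower with CS2164 averaged over radiation (log2 fold change -0.35, adjusted p = 0.0364).

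ADAM28, a protease known from lymphocytes and carcinomas, had 3.17, 4.22 and 4.28 FPKM in CS2164, 5.61, 4.59 and 5.48 in IR, 4.15, 5.50 and 5.59 in CS2164_IR and 3.93, 3.53 and 4.28 in control. The IR libraries lay above all control and CS2164 libraries, and 1 CS2164_IR library lay among these. Averaged over CS2164, radiation raised it by 0.40 ± 0.12 (adjusted p = 0.0417), a call that ended in 10 of 19 alternatives. After GC and length correction ADAM28 also passed as higher in IR (adjusted p = 0.021) and in CS2164_IR (adjusted p = 0.033), each against control.

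ADAM32, a member without a zinc-binding site that is known from testis, was the lowest tested gene. It had 2, 6 and 4 reads in CS2164, 7, 5 and 14 in IR, 10, 15 and 19 in CS2164_IR and 16, 21 and 9 in control. CS2164 fell below control without overlap, at a log2 fold change of -1.87 ± 0.61 (adjusted p = 0.0386), but the call ended in 10 of 19 alternatives, among them the 1 without both distant libraries (adjusted p = 0.315). After GC and length correction ADAM32 was also called higher in CS2164_IR than in CS2164 (adjusted p = 0.0449). ADAM18, another such member, had 3 reads in CS2164_IR replicate 1 and 76 and 87 in its mates, and did not pass.

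**Figure D4:**
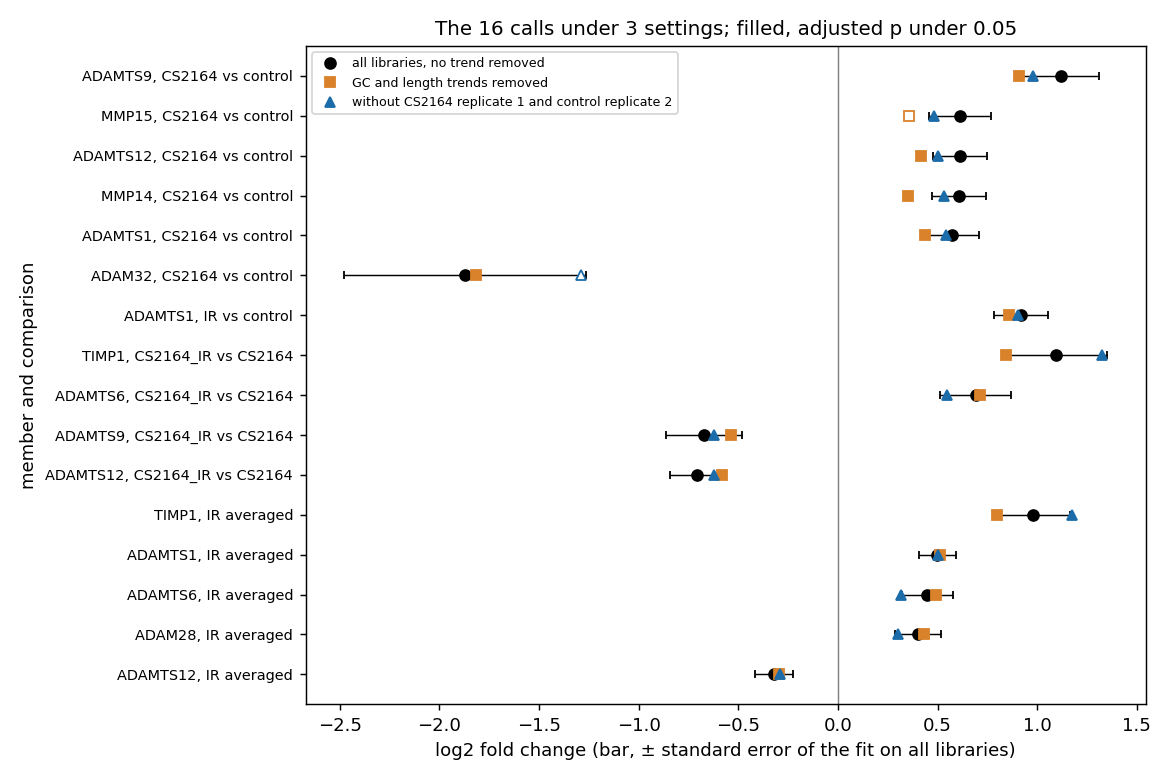
Log2 fold change of the 16 member calls, 1 row each, with the standard error of the fit on all libraries as a bar, beside the value after GC and length correction and the value without CS2164 replicate 1 and control replicate 2. Filled marks have an adjusted p under 0.05, and the open ones are MMP15 after the correction and ADAM32 without both libraries.

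Genes that make, hold back or feed these proteases were read from 8 lists. Substrates of ADAMTS and MMP enzymes changed most: 11 of 12 tested rose with CS2164 against control, at a list median of 0.87 where all genes had -0.01 and 10.4% of them passed as higher. FN1, which encodes fibronectin, averaged 960 ± 144 FPKM in CS2164 and 454 ± 64.3 in control (SD, n = 3 each), a rise of 1.08 ± 0.18 (adjusted p = 0.0044). NID1, a basement membrane linker, rose by 0.90 ± 0.16 (adjusted p = 0.00455) and LAMC1, a laminin chain, by 0.77 ± 0.14 (adjusted p = 0.00455). VCAN, the versican cut by ADAMTS1 and ADAMTS9, averaged 19.7 ± 5.54 FPKM in CS2164 and 9.77 ± 2.04 in control (SD, n = 3 each), a rise of 1.01 ± 0.19 (adjusted p = 0.00459). In CS2164_IR against CS2164 5 of 12 fell and none rose, against 5.91% and 3.78% of all genes, NID1 by 1.02 ± 0.16 and FN1 by 1.08 ± 0.18 on the log2 scale. The count of 11 was 6 after correction for GC content and length and 6 without CS2164 replicate 1 and control replicate 2, both settings being added for the lists after seeing the data. The share of all genes called in either direction was 19.7% with all libraries, 17.7% after the correction and 7.05% without the pair. The count of 5 was 6 and 8 under these settings, where 19.3% and 23.9% of all genes were called against 9.69%, and 1 substrate was called higher after the correction. COL1A1 is on this list and on that of the fibroblast markers, whose summed share of counts, mostly COL1A2, was higher in every treated group than in control.

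Of 19 tested substrates shed by ADAMs, 10 rose with CS2164 against control and none fell, with a median of 0.40, against 10.4% higher and 9.32% lower among all genes. The receptor NOTCH2 rose by 1.14 ± 0.15 (adjusted p = 0.00285), NOTCH3 by 1.26 ± 0.25 and NOTCH1 by 1.07 ± 0.24. The count was 9 after GC and length correction and 6 without both distant libraries, where the share over all genes was 17.7% and 7.05% in place of 19.7%. In CS2164_IR against CS2164 5 fell and 1 rose, against 5.91% lower and 3.78% higher among all genes. Those that fell included NOTCH2 by 1.10 ± 0.15 and IL6R, the interleukin-6 receptor, by 0.85 ± 0.15. The 5 became 7 after GC and length correction and 6 without both distant libraries, where 19.3% and 23.9% of all genes were called in place of 9.69%. AREG, the EGF-family ligand that ADAM17 releases, rose by 1.80 ± 0.44 there (adjusted p = 0.0175). Averaged over CS2164, radiation raised AREG by 1.71 ± 0.31 (adjusted p = 0.004) and lowered 4 of the 19, with IL6R at -0.70 ± 0.10 (adjusted p = 0.00112) and NOTCH2 at -0.50 ± 0.11. Among all genes 3.45% were higher and 4.16% lower there. The 4 became 6 after GC and length correction, where 18.8% of all genes were called in place of 7.62%. AREG had 237 reads in all, and averaged 0.359 FPKM in CS2164, 1.15 in IR, 1.28 in CS2164_IR and 0.373 in control.

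Proprotein convertases cut the propeptide from membrane-type MMPs, MMP11, ADAMs and ADAMTS proteases. Their list also holds membrane serine proteases and related genes. Of its 8 tested genes 3, all of them convertases, rose with CS2164, against 10.4% of all genes: PCSK6 by 1.33 ± 0.26 (adjusted p = 0.00502), FURIN by 0.76 ± 0.19 (adjusted p = 0.0125) and PCSK7 by 0.71 ± 0.24 (adjusted p = 0.0433). The count was 2 after GC and length correction and 0 without both distant libraries, the setting in which 7.05% of all genes were called in place of 19.7%. In CS2164_IR against CS2164 PCSK6 fell by 1.14 ± 0.26 and FURIN by 0.71 ± 0.19. FURIN averaged 337 ± 51.8 FPKM in CS2164, 202 ± 31.9 in IR, 206 ± 25.1 in CS2164_IR and 199 ± 45.8 in control (SD, n = 3 each).

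Of 9 tested MMP inducers and further inhibitors, A2M, the plasma protease trap alpha-2-macroglobulin, rose with CS2164 by 0.83 ± 0.21 (adjusted p = 0.0132). TFPI2, a Kunitz inhibitor of plasmin, rose by 1.66 ± 0.35 in CS2164_IR against CS2164 (adjusted p = 0.00951) and by 1.35 ± 0.24 with radiation averaged over CS2164 (adjusted p = 0.00351), on 339 reads in all. Of 9 partners of ADAM10 and ADAM17, RHBDF2, an iRhom that escorts ADAM17, rose with CS2164 by 0.70 ± 0.19 (adjusted p = 0.0193) and TSPAN14, a tetraspanin partner of ADAM10, by 0.44 ± 0.14 (adjusted p = 0.0372). Neither passed after GC and length correction or without both distant libraries, where 17.7% and 7.05% of all genes were called in place of 19.7%. With radiation averaged over CS2164 RHBDF1, the other iRhom, rose by 0.51 ± 0.11 (adjusted p = 0.0122) and TSPAN14 had -0.49 ± 0.10 (adjusted p = 0.00917). Among all genes 10.4% passed as higher with CS2164 against control and 3.78% in CS2164_IR against CS2164. With radiation averaged over CS2164 3.45% were higher and 4.16% lower.

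Of 10 tested genes of the plasminogen system, S100A10, a plasminogen receptor subunit, had a log2 fold change of -0.62 ± 0.18 with CS2164 against control (adjusted p = 0.023) and rose by 0.64 ± 0.18 in CS2164_IR against CS2164 (adjusted p = 0.0302). PLG, plasminogen itself, had -0.75 ± 0.19 with radiation averaged over CS2164 (adjusted p = 0.0278). Without both distant libraries no plasminogen gene was lower with CS2164, where 7.05% of all genes were called in place of 19.7%. Over all genes with all libraries 10.4% passed as higher and 9.32% as lower for CS2164 against control. The share passing as higher was 3.78% for CS2164_IR against CS2164 and 3.45% for radiation averaged over CS2164, where 4.16% passed as lower. Among 7 ADAMTS-like and astacin genes THSD4 rose with CS2164 by 0.92 ± 0.21 (adjusted p = 0.00978) and ADAMTSL4 by 0.68 ± 0.22 (adjusted p = 0.0369), both proteins of fibrillin fibres, and ADAMTSL5 rose by 0.63 ± 0.18 with radiation averaged over CS2164 (adjusted p = 0.0456). Of 10 cathepsins and related genes CTSV rose by 0.57 ± 0.18 in CS2164_IR against CS2164 (adjusted p = 0.0496) and CTSS by 0.56 ± 0.17 with radiation averaged over CS2164 (adjusted p = 0.0472). Without both distant libraries those counts for the cathepsin list were 5 and 6 in place of 1, where 23.9% and 27% of all genes were called in place of 9.69% and 7.62%. No gene of the 8 lists passed for IR or CS2164_IR against control, but some did under the alternatives. Of the 84 tested list genes, DESeq2 called 2 higher and 1 lower for IR and 4 higher for CS2164_IR, the GC and length correction gave 3 higher and 1 lower for IR and 2 higher and 2 lower for CS2164_IR, and without both distant libraries, of 85 tested, 1 was higher and 1 lower for IR and 5 higher and 1 lower for CS2164_IR. The share of all genes called there was 2.57%, 2.72% and 3.26% for IR and 2.35%, 2.35% and 3.05% for CS2164_IR.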

How the data were processed

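Poly-A RNA of 12 xenograft tumours, 4 groups of 3 libraries, was sequenced without strand marking, per the labels' protocols. Per the submitters' processing notes, the tools were HISAT2 2.1.0 and HTSeq 0.9.1; the sources used here name no annotation release. The deposited table holds read counts and FPKM per gene. The authors' FPKM equalled the count over gene length and library total within a relative tolerance of 0.001 and served here only to give gene length. Symbols were matched to 19941 of 19988 genes, and positions came from GENCODE (GRCh38).

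Deposited counts were filtered with filterByExpr, which left 13521 genes, scaled by TMM and fitted with the quasi-likelihood model of edgeR 4.0.16 (R 4.3.3), robust, with 1 coefficient per group and no block. The 8 comparisons were CS2164, IR and CS2164_IR each against control, CS2164_IR against IR and against CS2164, each treatment averaged over the other, and the interaction. p-values were adjusted by Benjamini-Hochberg over all tested genes within a comparison, with a threshold of 0.05. SE is the fold change over the root of its F. The procedure was tested on simulated data. Labels do not say that the 3 libraries of a group came from separate mice, so p-values measure the spread between these libraries. Replicate numbers are shared between groups, but only 3 of 18 same-number pairs correlated above 0.1 in their deviations (range -0.37 to 0.15), so they were not taken as pairs.

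Every member passing in a comparison is named there, the main members of each subfamily and the 2 highest are always looked up, and a list gives up to 3 passing genes; list genes beyond that rule were chosen after their values were seen. The members and lists were chosen with earlier results of these data known. Alternatives were upper-quartile and RLE scaling, all genes unfiltered, a replicate block, DESeq2 1.42.0, the compared groups only, GC and length trends taken out per library (spline with 4 degrees of freedom), 2 distant libraries left out, and each library left out in turn.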

Additional observations from a re-analysis of the deposited data

How the results depend on the processing

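Over the 16 member calls and their alternatives, 254 of 314 combinations kept the call, 60 lost it and none reversed. ADAMTS9 for CS2164 against control, ADAMTS12 for CS2164_IR against CS2164, and ADAMTS1 and TIMP1 for radiation averaged over CS2164 kept theirs under every alternative run. For CS2164 against control, the 6 member calls became 1, ADAMTS9, when only those 2 groups were fitted, with adjusted p of 0.072 for ADAMTS1, 0.059 for ADAMTS12 and 0.0602 for MMP14, and the share of all genes called was 2.18% in place of 19.7%. For CS2164_IR against CS2164 the 4 became 2 in that fit and 7, among them ADAM8, without control replicate 2 and CS2164 replicate 1, and the share over all genes 6.32% and 23.9% in place of 9.69%. For IR against control the 1 call became 4 with DESeq2, 2 with the compared groups only, 3 with GC and length trends removed and 3 without both distant libraries, with 2.57%, 1.05%, 2.72% and 3.26% of all genes in that order in place of 0.436%. For CS2164_IR against control, 0 became 2 with no filter and 3 with DESeq2, after GC and length correction and without both libraries, with 0.559%, 2.35%, 2.35% and 3.05% of all genes in place of 0.192%. For CS2164 averaged, 0 became 1 with no filter, 3 with DESeq2, 1 after GC and length correction and 1 without both libraries, with 1.94%, 7.34%, 4.69% and 2.49% of all genes in place of 0.178%. For radiation averaged, 5 became 3 with no filter and the all-gene share 6.34% in place of 7.62%. The interaction had 1 member with no filter, 3 with DESeq2 and 2 after GC and length correction or without both libraries, in place of 0, with 0.349%, 4.73%, 0.698% and 1.19% of all genes in place of 0%. The cause was not tested.

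Leaving out each library in turn gave 4 to 7 members for CS2164 against control, 0 to 3 for IR against control, 0 to 3 for CS2164_IR against control, 0 for CS2164_IR against IR, 1 to 4 for CS2164_IR against CS2164, 0 to 1 for CS2164 averaged, 2 to 7 for radiation averaged and 0 for the interaction. With the replicate number as a block the counts were 5, 1, 0, 0, 4, 0, 4 and 0 in that order, all within 1.5 times, although ADAM32 was lost for CS2164 against control, and for radiation averaged ADAMTS6 and ADAMTS12 were lost and MMP23B gained. Members under about 20 reads a library, such as ADAM32, and the 31 untested ones are limited by depth.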
